A study of Mus musculus with 16 samples.

Results

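The genes described here are 7 that slow or restrain the cell cycle: Btg1, Btg2, Tob1 and Tob2 of the Btg/Tob family, and Gadd45a, Gadd45b and Gadd45g of the Gadd45 family. They were taken by name from the gene list of the count matrix, and all 7 were found among its 14498 genes. The rule names the genes and sets no limit on a measured value. The matrix comes from forebrain cells of wild-type embryos of CD1, an outbred mouse strain, at embryonic day 15.5, captured in droplets with the SureCell single-cell workflow of Illumina and Bio-Rad. The labels of all 16 samples name the same strain, region and stage, which leaves 1 group, and the cells lie in 1 pooled matrix without a sample name. No treatment, mutant or second age enters, so the comparisons below are between kinds of cells. The series text speaks of the cerebral cortex, but cells with markers of the ganglionic eminence and striatum were present too.

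Btg and Tob proteins share a domain that binds the Caf1 subunits of the CCR4-NOT complex, which shortens the poly(A) tails of messenger RNA, and raised levels of these proteins hold cells in G1. Gadd45 proteins are small stress proteins that bind PCNA, the Cdk1-cyclin B complex and the kinase MEKK4 upstream of p38 and JNK, and they have been linked to the removal of DNA methylation. In the embryonic cortex, radial glia divide next to the ventricle and give rise to intermediate progenitors, which divide away from it and produce neurons. Btg2, also called Tis21 or PC3, is known there as a mark of progenitors whose next division yields neurons.

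All 7 genes are protein coding in the mm10 annotation of GENCODE. Btg2 lies at chr1:134075170-134079120 and Gadd45g at chr13:51846678-51848468. Btg1 lies at chr10:96617006-96622809, Tob1 at chr11:94211454-94215495 and Tob2 at chr15:81848272-81858796. Gadd45a lies at chr6:67035096-67037457 and Gadd45b at chr10:80930073-80932204. The stretches of 250 bases before the RefSeq starts of Btg2 and Gadd45g (build GRCm38.p6) are shown because the levels of these genes across clusters were the most alike of any pair of members. They run 5′ to 3′ on the strand of the gene, and capitals mark matches to 6 short motifs searched on both strands, chosen with these results known. These were the CCAAT box (CCAAT), the TATA box (TATAAA), the cyclic AMP response element (TGACGTCA), the E-box form CAGCTG, the related E-box form CATCTG, and the E-box form CACGTG. The Btg2 window is chr1:134079156-134079405 on the minus strand, and the Gadd45g window is chr13:51846425-51846674 on the plus strand.
Btg2: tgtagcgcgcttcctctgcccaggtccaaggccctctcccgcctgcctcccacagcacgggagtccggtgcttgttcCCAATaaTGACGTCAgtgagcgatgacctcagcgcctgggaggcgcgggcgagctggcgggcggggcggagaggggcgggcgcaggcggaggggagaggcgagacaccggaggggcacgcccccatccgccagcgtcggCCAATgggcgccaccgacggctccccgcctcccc
Gadd45g: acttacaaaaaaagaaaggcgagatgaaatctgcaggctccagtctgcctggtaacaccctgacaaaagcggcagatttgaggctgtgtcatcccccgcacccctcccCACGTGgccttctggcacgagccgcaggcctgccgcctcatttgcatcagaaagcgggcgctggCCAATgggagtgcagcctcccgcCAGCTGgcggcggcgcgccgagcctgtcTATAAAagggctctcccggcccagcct

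The Btg2 window held 2 CCAAT matches, which begin 173 and 34 bases before the start, and 1 TGACGTCA match 166 bases before it. The Gadd45g window held CCAAT once, 78 bases before the start, TATAAA once, 27 bases before it, and an E-box form at 2 places, CAGCTG at 55 bases and CACGTG at 142 bases. CCAAT occurred in 6 of the 7 members' windows and in 33.8% of 32851 promoter windows of the same length. TGACGTCA occurred in 1.55% of those windows, TATAAA in 12.4%, CAGCTG in 13% and CACGTG in 6.02%. CATCTG, present in 14.4% of windows, was in 0 of the 7. A match is only a run of letters, and no binding was measured.

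The pooled matrix held 5777 cells and 21609944 UMIs (unique molecular identifiers, each standing for a single RNA molecule that was captured), with a median of 3258 UMIs a cell. After removal of 4 globin-rich cells, 5773 cells fell into 20 clusters, and 16 clusters could be named as classes from marker genes. The 7 members and the cycle genes took no part in the clustering. Most marker genes of the classes used below were at least 1.5-fold above the other cells: 14 of 14 for radial glia-like, 10 of 11 for intermediate progenitor-like, 10 of 10 for migrating excitatory neuron-like and 10 of 10 for ganglionic eminence progenitor-like cells, but 5 of 9 for upper layer neuron-like cells. The order of the matrix showed 2 runs of 3647 and 2122 cells, told apart by gene content only, and each main value was also computed in each run. The runs differed in what they held: 461 of the 494 ganglionic eminence progenitor-like cells were in the first, and 229 of the 249 upper layer neuron-like cells were in the second. Levels are UMIs summed over the cells of a class per 1000000 UMIs of that class (CPM), with exact 95% Poisson intervals that cover counting error only. Because embryos cannot be separated, no value below carries a test across animals. A fixed difference of at least 1.5-fold, with at least 50 UMIs over both groups, was used to call a gene higher or lower.

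Btg2 was highest in intermediate progenitor-like cells. Its level was 263 CPM (245 to 283) in 768 radial glia-like cells, 876 CPM (824 to 930) in 385 intermediate progenitor-like cells, 122 CPM (111 to 135) in 987 migrating excitatory neuron-like cells and 37.8 CPM (32.9 to 43.3) in 1253 older excitatory neuron-like cells, which are the deep and upper layer classes together. Both runs gave almost the same peak, 879 and 877 CPM. With every cell thinned to 1000 UMIs, a Btg2 UMI was found in 52.5% of intermediate progenitor-like cells and in 19.9% of radial glia-like cells, at median depths of 2913 and 3310 UMIs. The share was 1.20% in upper layer neuron-like cells (median 4363 UMIs), the class with the lowest level. Background was not measured, so a Btg2 share of that size cannot be told from it. Outside the excitatory lineage, Btg2 stood at 246 CPM (224 to 270) in ganglionic eminence progenitor-like cells, not separated from radial glia-like cells. It stood at 40.8 CPM in interneuron-like and 50.4 CPM in striatal neuron-like cells, near its level in deep layer neuron-like cells (41.4 CPM). The 18 microglia-like cells had 923 CPM (712 to 1176) of Btg2, 65 UMIs in all, and these few cells also had 21275 CPM of 20 immediate early genes, against 2894 CPM in radial glia-like cells. The part of that RNA in the Btg2 level was not tested.

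Gadd45g was also highest in intermediate progenitor-like cells, but here radial glia-like cells came below migrating excitatory neuron-like cells. Gadd45g stood at 58.4 CPM (49.9 to 68.0) in radial glia-like, 501 CPM (462 to 543) in intermediate progenitor-like, 80.8 CPM (71.4 to 91.1) in migrating excitatory neuron-like and 27.8 CPM (23.6 to 32.5) in older excitatory neuron-like cells. Its peak was 600 CPM in run 1 of the cells and 413 CPM in run 2, and its radial glia-like level was 75.0 and 35.7 CPM, so both levels were lower in the second run. Ganglionic eminence progenitor-like cells had 135 CPM of Gadd45g (119 to 154) and Cajal-Retzius cell-like cells had 118 CPM (82.8 to 162), and these neighbours in the order were not separated by their intervals.

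Gadd45a, the family member best known as a target of p53, was scarce, with 277 UMIs in 222 cells. Its level was 5.25 CPM (2.94 to 8.66) in radial glia-like, 30.7 CPM (21.6 to 42.3) in intermediate progenitor-like, 19.0 CPM (14.6 to 24.3) in migrating excitatory neuron-like and 9.90 CPM (7.48 to 12.9) in older excitatory neuron-like cells. Intermediate progenitor-like cells were highest in both runs, but their interval overlapped that of interneuron-like cells (19.0 CPM, 13.2 to 26.6). Gadd45b, known as an activity-induced gene of neurons, had 67 UMIs in the whole matrix. None of its UMIs fell in the 385 intermediate progenitor-like cells, which allows up to 3.06 CPM, and 27 fell in older excitatory neuron-like cells (4.77 CPM, 3.15 to 6.95). A further 7 Gadd45b UMIs came from the 29 meningeal fibroblast-like cells.

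Btg1, a broadly expressed member known for keeping lymphocytes quiescent, was similar in both progenitor classes. Its level was 130 CPM (117 to 144) in radial glia-like, 113 CPM (94.6 to 133) in intermediate progenitor-like, 65.7 CPM (57.3 to 75.0) in migrating excitatory neuron-like and 52.9 CPM (47.0 to 59.2) in older excitatory neuron-like cells. In interneuron-like cells Btg1 reached 123 CPM (107 to 140), not separated from its level in radial glia-like cells. Within that class Btg1 was 174 CPM (142 to 211) in the cluster led by Sp8, with 151 and 302 CPM by run. It was 104 and 92.3 CPM in the clusters led by Maf and Sst. Over all cells Tob1 was close in both progenitor classes, 201 CPM (184 to 218) in radial glia-like and 175 CPM (152 to 200) in intermediate progenitor-like cells. It was lower in migrating excitatory neuron-like cells (133 CPM, 121 to 146) and in older excitatory neuron-like cells (81.7 CPM, 74.4 to 89.5). In intermediate progenitor-like cells the runs differed for Tob1, 126 CPM in run 1 and 223 CPM in run 2. Radial glia-like cells had 183 and 224 CPM of Tob1 in these runs, so the progenitor classes were alike in run 2. In run 1 intermediate progenitor-like cells (98.7 to 158) were below radial glia-like cells (163 to 205), and these intervals did not overlap. Tob2 was at 52.1 CPM (44.1 to 61.2) and 59.7 CPM (46.7 to 75.2) in radial glia-like and intermediate progenitor-like cells, and at 24.7 CPM (19.7 to 30.7) and 19.1 CPM (15.7 to 23.1) in migrating and older excitatory neuron-like cells. Shares of genes by highest class cover the 10830 genes with at least 50 UMIs over the 4 lineage classes, which leaves out Gadd45b. Of the 6 measured members, 4 (Btg2, Tob2, Gadd45a and Gadd45g) had their highest lineage level in intermediate progenitor-like cells, where 24.9% of those genes also peaked. Btg1 and Tob1, 2 of 6, were highest in radial glia-like cells, as 35.2% of genes were. Migrating excitatory neuron-like cells (13.4% of genes) and older excitatory neuron-like cells (26.5%) were highest for 0 of 6. Gadd45b, with too few UMIs to be counted, was highest in older excitatory neuron-like cells. With both runs together, the lead of Tob2 over radial glia-like cells was within counting error. So were the leads of Btg1 and Tob1 over intermediate progenitor-like cells.

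**Figure D1:**
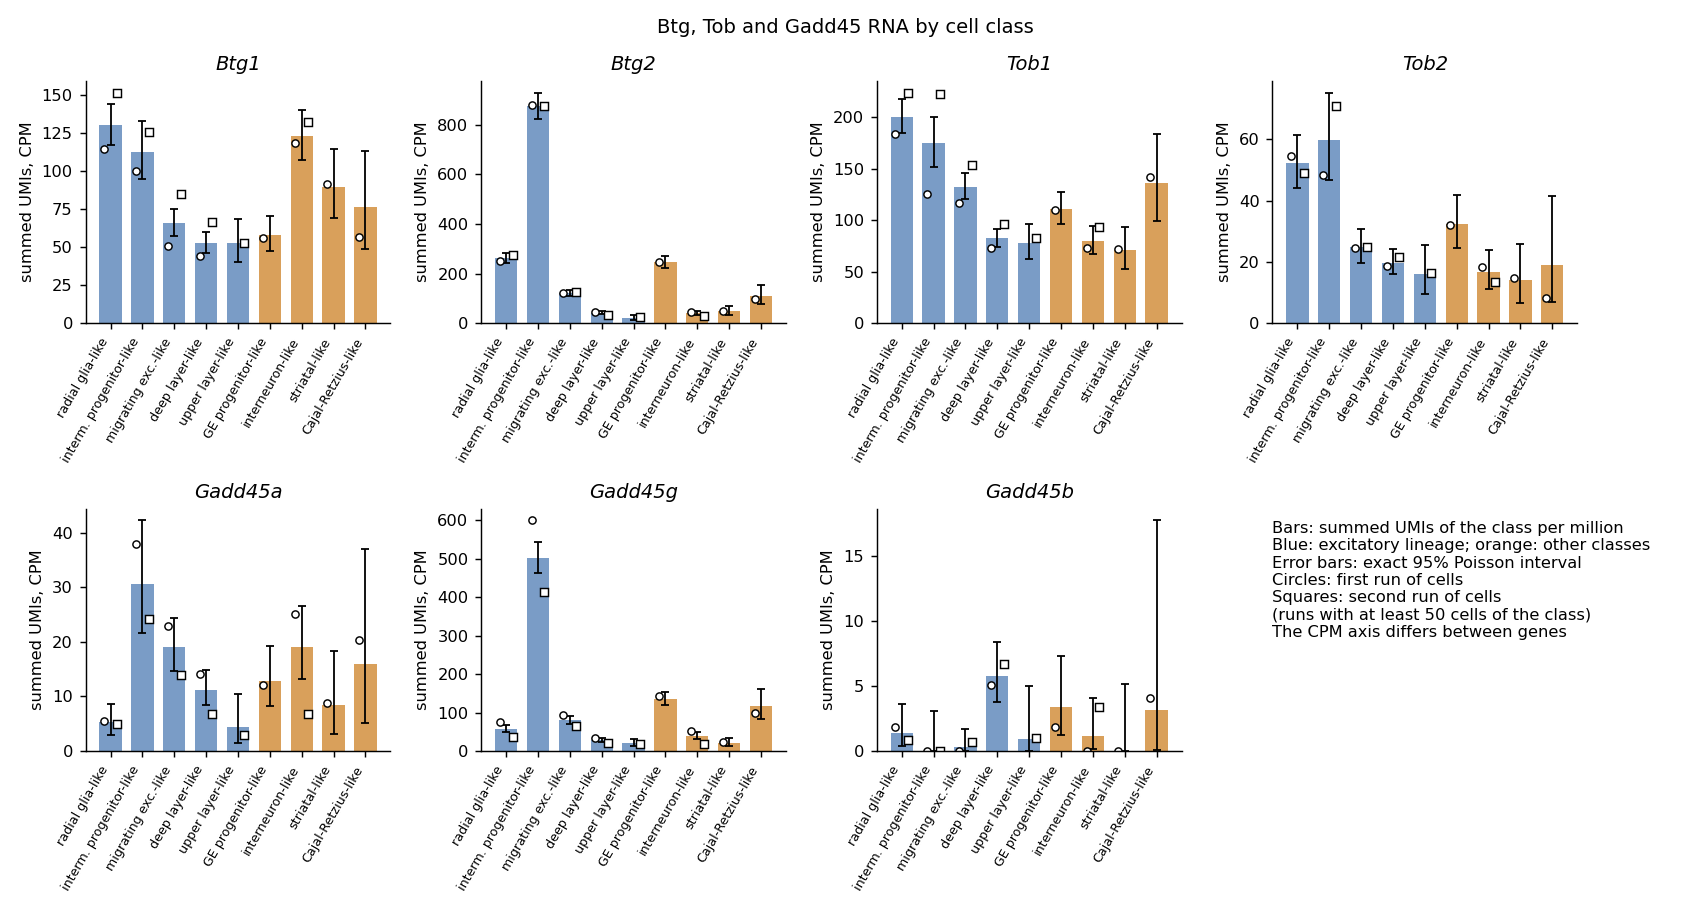
Bars give the level of each gene (CPM, y axis, a separate linear scale per gene) in the 9 classes of at least 50 cells (x axis), with exact 95% Poisson intervals; circles and squares give the first and second run of cells. Btg2 and Gadd45g stand out in intermediate progenitor-like cells (876 and 501 CPM), while Btg1 and Tob1 are close in radial glia-like and intermediate progenitor-like cells.

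From radial glia-like to intermediate progenitor-like cells, 3 of the 6 measured members were higher and 0 lower, against 14.3% of 9064 genes higher and 20.9% lower. Gadd45g was 8.57 times higher (95% interval 7.21 to 10.2), with ratios of 8.0 and 11.6 by run. Btg2 was 3.33 times higher (3.03 to 3.66), with ratios of 3.48 and 3.17. Gadd45a was 5.85 times higher (3.13 to 11.5) on 52 UMIs. Btg1 (ratio 0.866, 0.707 to 1.06), Tob1 (0.873, 0.742 to 1.02) and Tob2 (1.15, 0.852 to 1.53) stayed between the limits. Clusters drawn on a random 50% of the UMIs, with levels read from the remaining UMIs, gave log2 ratios of 1.37 (1.20 to 1.54) for Btg2 and 2.48 (2.19 to 2.78) for Gadd45g, smaller than 1.73 and 3.10 with all UMIs.

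Most members were lower at the next step. From intermediate progenitor-like to migrating excitatory neuron-like cells, 5 of the 6 measured members were lower, against 15.3% of 8801 genes, and 0 were higher, against 13.2%. Btg2 was 7.17-fold lower (6.39 to 8.06) and Gadd45g 6.20-fold lower (5.36 to 7.19), and both runs gave 6.39-fold to 7.30-fold. Tob2 was 2.42-fold lower (1.74 to 3.36), Btg1 1.72-fold (1.38 to 2.14) and Gadd45a 1.62-fold (1.05 to 2.46). Tob1 was 1.32-fold lower (1.11 to 1.56), short of the limit. The migrating class was made of 2 clusters, a Neurod1-rich one of 452 cells and an Unc5d-rich one of 535 cells, and the levels of the members differed between them. From intermediate progenitor-like to Neurod1-rich cells, 3 of 6 measured members (Btg2, Gadd45g and Tob2) were lower, against 12.1% of 7704 genes, and 0 higher, against 10.3%. Btg2 was 221 CPM in the Neurod1-rich and 45.9 CPM in the Unc5d-rich cells, and Gadd45g was 118 and 52.3 CPM. Tob1 was still at 184 CPM in the Neurod1-rich cells, next to 175 CPM in intermediate progenitor-like cells, and at 92.9 CPM in the Unc5d-rich cells (1.98-fold lower, 1.63 to 2.41). Gadd45a likewise held 29.8 CPM in the Neurod1-rich cells and 10.7 CPM in the Unc5d-rich ones. Between these clusters 5 of 6 measured members were lower, against 10.4% of 7989 genes, and 0 were higher, against 7.51%.

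From migrating to older excitatory neuron-like cells, 4 of the 6 measured members were lower, against 13.6% of 9937 genes, and 0 were higher, against 15.6%. Btg2 was 3.23-fold lower (2.73 to 3.83), Gadd45g 2.91-fold (2.38 to 3.57), Gadd45a 1.92-fold (1.32 to 2.80) and Tob1 1.62-fold (1.42 to 1.85). Gadd45b had 1 UMI in migrating and 27 in older excitatory neuron-like cells, under the minimum for a call.

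The cells of the excitatory lineage classes were also ordered by diffusion distance from a radial glia-like cell and cut into 10 bins of 339 or 340 cells. Both the cells and the start were chosen by class, so the bins give a finer position and are not independent of the classes. Btg2 and Gadd45g were highest in bin 3 in all cells and in each run. In bins 1 to 5, Btg2 had 241, 258, 922, 404 and 128 CPM, and Gadd45g had 41.5, 51.7, 572, 189 and 63.8 CPM. Bin 3 held 71.7% intermediate progenitor-like and 26.3% radial glia-like cells. In that bin, cells with at least 4 cycle UMIs (defined below) were 27.7%, between 84.1% in bin 2 and 8.53% in bin 4. Eomes, the transcription factor that marks intermediate progenitors, was as high in bin 4 (2095 CPM) as in bin 3 (2117 CPM), and over the same step Btg2 went from 922 to 404 CPM and Gadd45g from 572 to 189 CPM. Neurog2, another marker of intermediate progenitor-like cells, was also lower in bin 4, at 944 CPM against 1841 CPM in bin 3. Bin 4 held 41.2% intermediate progenitor-like and 58.8% migrating excitatory neuron-like cells. Both members and Neurog2 were thus lower in bin 4 while Eomes was not. Gadd45a was highest in bin 4 (39.0 CPM) and nearly as high in bin 3 (32.9 CPM). Btg1 was highest in bin 1 (152 CPM) in both runs and lowest in bin 7 (45.0 CPM). Tob1 was highest in bin 2 (222 CPM) in all cells, with 203 CPM in bin 4 and 85.7 CPM by bin 6.

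**Figure D2:**
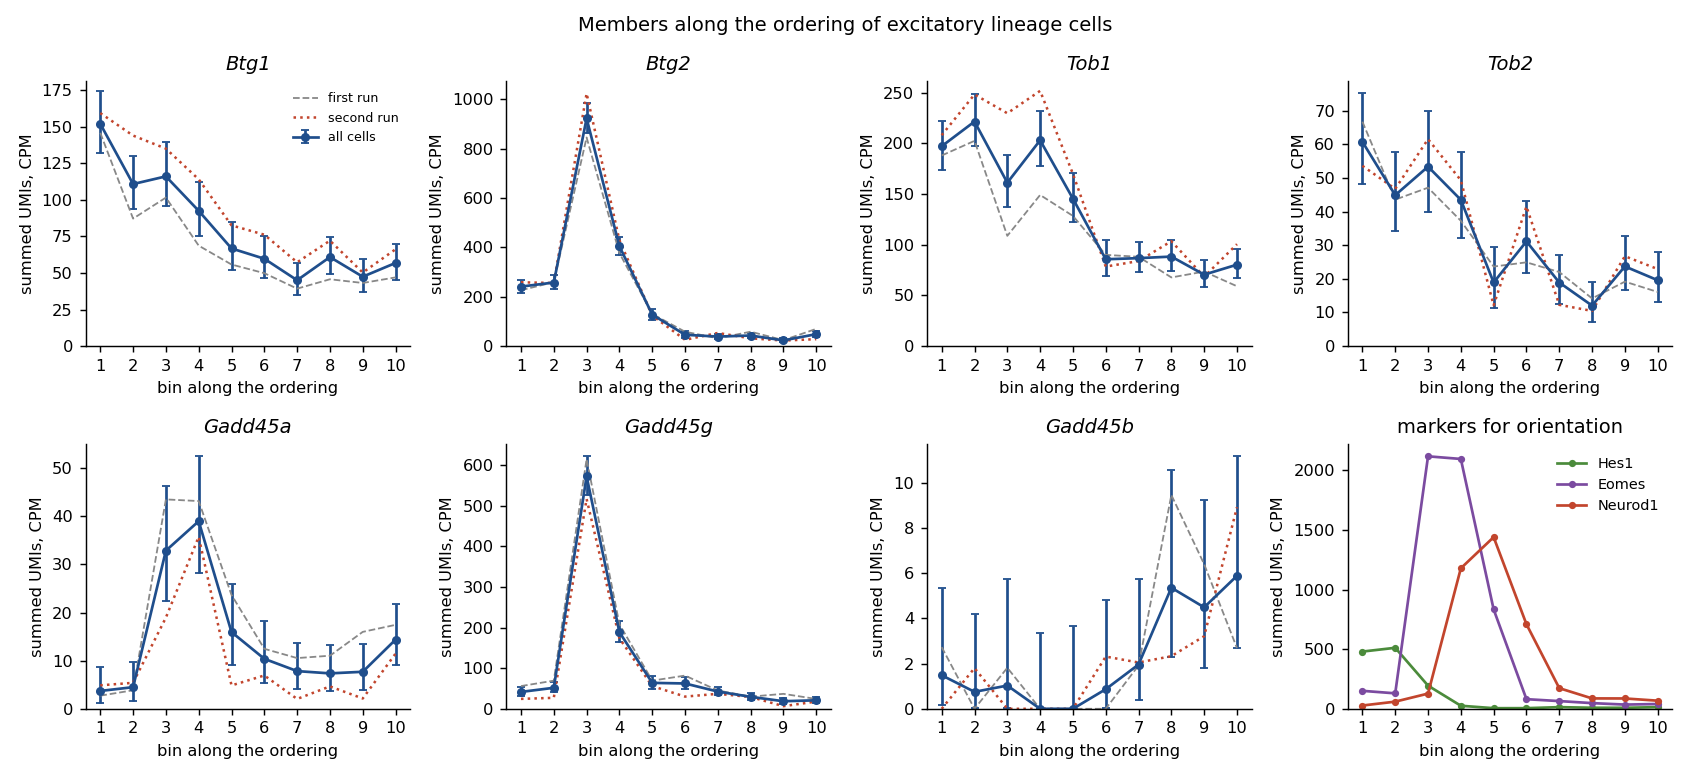
Level of each member (CPM, y axis, linear) in 10 bins of excitatory lineage cells ordered from radial glia-like to older neurons (x axis), with exact 95% Poisson intervals; dashed and dotted lines are the first and second run of cells, and the last panel shows Hes1, Eomes and Neurod1. Btg2 and Gadd45g peak in bin 3 (922 and 572 CPM), Gadd45a in bin 4 (39.0 CPM), and Btg1 and Tob1 are lower in the later bins.

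In the ventral forebrain, Btg2 and Gadd45g were likewise lower in interneuron-like than in ganglionic eminence progenitor-like cells. Of 6 measured members, 3 were lower, against 24.8% of 8687 genes, and 1 was higher, against 19.5%. Btg2 went from 246 to 40.8 CPM, 6.03-fold lower (4.70 to 7.84), Gadd45g from 135 to 40.3 CPM, 3.37-fold lower (2.58 to 4.44), and Tob2 from 32.5 to 16.8 CPM, 1.94-fold lower (1.23 to 3.12). Btg1 went the other way, from 58.2 to 123 CPM, a ratio of 2.11 (1.67 to 2.69). It was 2.11 in run 1 and 1.56 in run 2, which held 32 of these progenitors. With Leiden resolution 0.5, which changed both classes, the log2 ratio of Btg1 was -0.14 in place of 1.08, so this direction depended on where the class borders lay. In striatal neuron-like cells, the output of the lateral ganglionic eminence, Btg2 was 4.89-fold lower (3.48 to 7.07) and Gadd45g 6.45-fold lower (3.83 to 11.7) than in these progenitors. Tob1 and Tob2 were lower too, so 4 of 5 measured members were lower, against 25.9% of 7838 genes, while Btg1, 1 of 5, was 1.54 times higher (1.11 to 2.12), as 17.9% of genes were.

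Cycle RNA was read in single cells from 27 S-phase and 42 G2/M genes, counted among 1000 UMIs drawn at random from each cell. Cells with 0 or 1 such UMI are called low and cells with at least 4 high. By this measure 80.5% of radial glia-like, 12.2% of intermediate progenitor-like, 87.4% of ganglionic eminence progenitor-like and 1.20% of older excitatory neuron-like cells were high. The genes had been picked as at least 8-fold lower in older excitatory neuron-like than in radial glia-like cells of these data. The contrast between those classes is therefore partly set by that choice. With the full lists, 98.2% of radial glia-like and 80.7% of older excitatory neuron-like cells had at least 2 cycle UMIs. Most intermediate progenitor-like cells, 239 of 385, were low. These shares leave out an unnamed cluster of 213 dividing cells described below. When genes that follow the cycle were dropped from the clustering, 76 of its cells joined the radial glia-like class and 72 the intermediate progenitor-like class. A further 29 joined older excitatory neuron-like, 20 migrating excitatory neuron-like and 12 interneuron-like cells, and 4 fell in unnamed clusters. The intermediate progenitor-like class then had 481 cells with 26.0% high, and the radial glia-like class 861 cells with 77.4% high.

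Within radial glia-like cells, Btg2 and Gadd45g were lower where cycle RNA was high, while Tob1 and Btg1 stayed between the limits over all cells. The 80 low cells had 597 CPM of Btg2 (505 to 702), the 70 cells in between had 460 CPM (381 to 551) and the 618 high cells had 207 CPM (189 to 226). From low to high this was 2.88-fold lower (2.38 to 3.48), with ratios of 0.397 and 0.290 in the runs. Gadd45g had 179 CPM (130 to 240) in low, 74.7 CPM (45.0 to 117) in between and 44.1 CPM (36.0 to 53.5) in high cells, 4.05-fold lower (2.78 to 5.82), with ratios of 0.259 and 0.156 in the runs. Together 2 of 5 measured members were lower, against 13.6% of 8016 genes, and 0 were higher, against 18.8%. Tob1 was 179 CPM in low and 200.2 CPM in high cells (ratio 1.12, 0.822 to 1.56) and Btg1 150 and 125 CPM (0.833, 0.590 to 1.21). For these 2 genes the runs pointed apart, with ratios of 1.78 and 0.865 for Tob1 and 1.63 and 0.590 for Btg1. Low cells were also shallower, with a median of 2582 UMIs against 3432 in high cells. Read the other way round, 64.7% (56.6 to 72.3) of radial glia-like cells with a Btg2 UMI were high, against 84.4% (81.3 to 87.2) of those without one. For Gadd45g the shares were 59.5% (43.3 to 74.4) and 81.7% (78.7 to 84.4), and for Tob1 78.5% and 80.8%. Within high radial glia-like cells, Btg2 differed by less than its intervals between phases, with 212 CPM (181 to 247) where S-phase UMIs were more numerous and 199.7 CPM (178 to 224) where G2/M UMIs were.

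In intermediate progenitor-like cells Btg2 stayed between the limits at the same split, and whether the split differs from that in radial glia-like cells was not tested. Btg2 was 960 CPM (890 to 1034) in low and 716 CPM (596 to 852) in high cells, 1.34-fold lower (1.11 to 1.63) and short of the limit. Gadd45g was 536 and 347 CPM, 1.55-fold lower (1.18 to 2.06), and Tob2 was 64.5 and 28.4 CPM on 47 and 5 UMIs, 2.27-fold lower with an interval that includes no change (0.908 to 7.32). These made 2 of 5 measured members lower, against 12.8% of 4354 genes, and 0 higher, against 8.75%. The count of lower members was 0 with limits of at least 1 against 0, or at least 3 against at most 1, cycle UMIs. Among cells with a Tob1 UMI, 5.48% (1.51 to 13.4) were high, against 13.8% (10.2 to 18.1) of those without one. This rests on 4 high cells, and the intervals overlap. The same shares were 9.90% and 14.8% for Btg2, 11.8% and 12.4% for Gadd45g, and 6.06% and 12.8% for Btg1. Even the high intermediate progenitor-like cells had more Btg2 than the low radial glia-like cells, 716 against 597 CPM, with overlapping intervals. In ganglionic eminence progenitor-like cells, Btg2 was 436 CPM (317 to 585) in 30 low and 220 CPM (197 to 245) in 432 high cells, 1.98-fold lower (1.41 to 2.72). Gadd45g was 168 and 134 CPM (ratio 0.793, 0.484 to 1.39), so only Btg2 passed, 1 of 5 measured members against 18.2% of 6577 genes lower, and 0 were higher, against 25.9%. The second run held 3 of these low cells and gave a Btg2 ratio of 1.36.

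**Figure D3:**
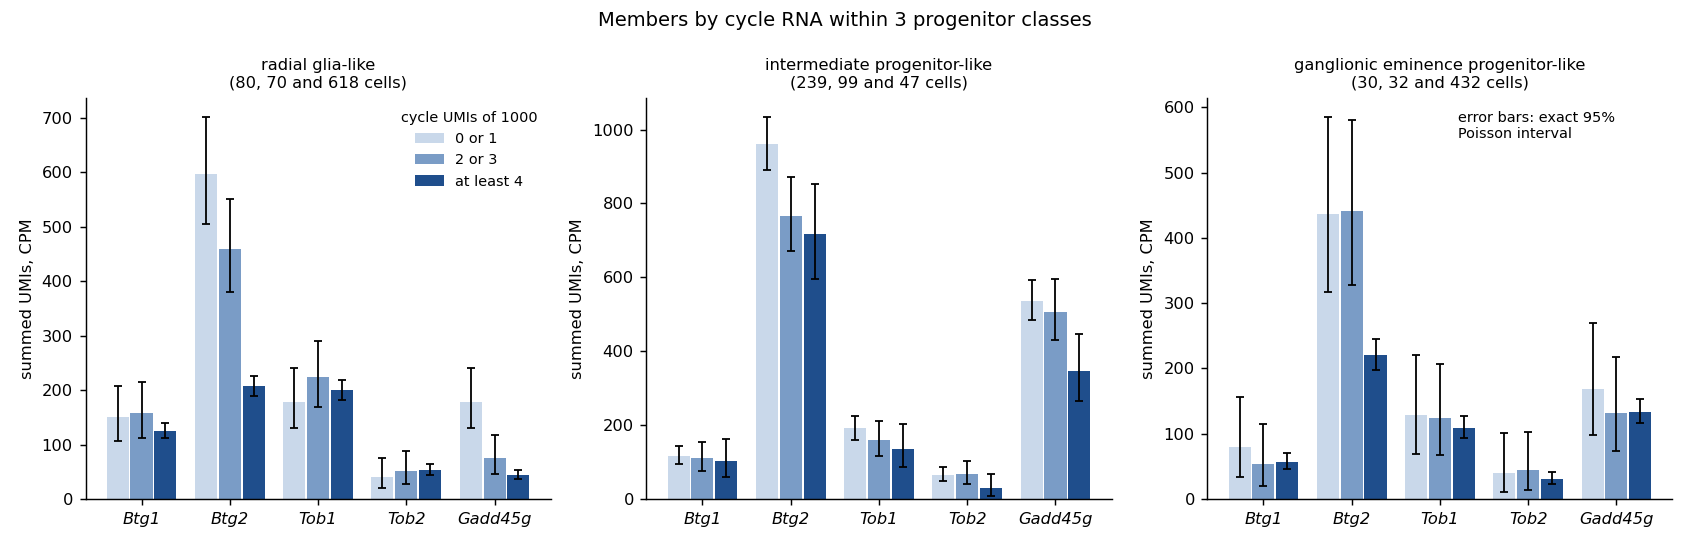
Level of 5 members (CPM, y axis, linear) in cells with 0 or 1, 2 or 3, and at least 4 cycle UMIs among 1000, within 3 progenitor classes, with exact 95% Poisson intervals. In radial glia-like cells Btg2 steps down from 597 to 460 to 207 CPM and Gadd45g from 179 to 74.7 to 44.1 CPM, while Btg1, Tob1 and Tob2 overlap.

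Low cycle RNA went together with proneural RNA in radial glia-like cells: of 13 measured genes of a neurogenesis list, 11 were lower in high cells. Both splits were therefore crossed, after the values had been seen. Radial glia-like cells with a UMI of Neurog2, a transcription factor that commits progenitors to the neuronal path, or of Eomes had 2.12 times the Btg2 (1.81 to 2.47) and 4.91 times the Gadd45g (3.58 to 6.75) of those without. This made 2 of 5 measured members higher, against 5.75% of 8259 genes, and 0 lower, against 9.04%. Among cells without either UMI, Btg2 was 495 CPM (390 to 619) in 49 low cells and 181 CPM (162 to 201) in 517 high cells. Among cells with one, it was 768 CPM (600 to 968) in 31 low cells and 340 CPM (285 to 403) in 101 high cells. Btg2 was thus lower with high cycle RNA at either level of proneural RNA, and higher with proneural RNA among high cells. Among low cells the intervals without and with proneural RNA overlapped. These low cells had 533 and 631 CPM in run 1, and 443 and 851 CPM in run 2. The order of the 4 groups held in both runs. Gadd45g was 24.4 CPM (18.0 to 32.3) in high cells without Neurog2 or Eomes, and 16.2 CPM (3.34 to 47.3) in the 52 cells in between without either. The low cells without either, the high cells with one and the low cells with one, at 169, 144 and 195 CPM, overlapped. In the second run of cells alone, those 3 Gadd45g values were 45.9, 31.0 and 208 CPM, against 261, 182 and 172 CPM in the first, so their order was not the same by run.

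**Figure D4:**
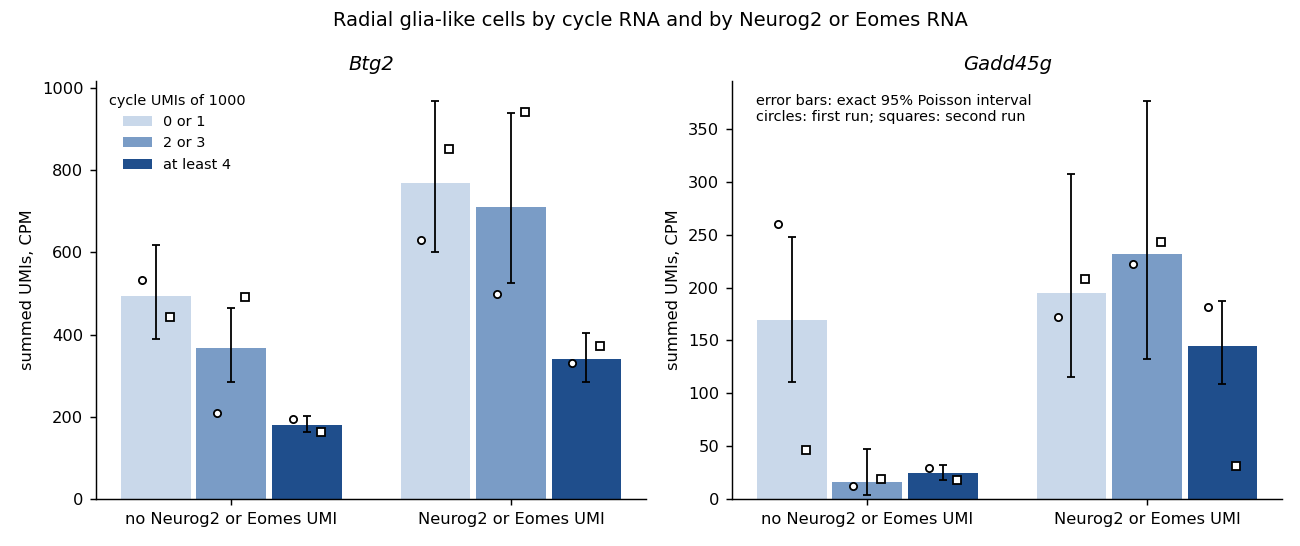
Btg2 and Gadd45g levels (CPM, y axis, linear) in radial glia-like cells without and with a Neurog2 or Eomes UMI (x axis), split by cycle UMIs among 1000, with exact 95% Poisson intervals and each run as circles and squares. Btg2 runs from 181 CPM in high cells without either UMI to 768 CPM in low cells with one, and Gadd45g is low in in-between and high cells without either UMI (16.2 and 24.4 CPM).

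A cluster of 213 dividing cells stayed unnamed, with 78.4% of its cells high for cycle RNA. It carried RNA of several classes (Eomes 594 CPM, Sox2 319 CPM and Dlx1 145 CPM) at a median of 5541 UMIs, and 119 of its cells were among the 288 with the highest doublet scores. It entered none of the class values above. Btg2 was 238 CPM and Gadd45g 154 CPM in these cells. Against intermediate progenitor-like cells, Btg2 was 3.68-fold lower (3.23 to 4.2) and Gadd45g 3.25-fold lower (2.76 to 3.85), and all 6 measured members were at least 1.58-fold lower, against 11.9% of 7746 genes (15% were higher). Against radial glia-like cells, Gadd45g was 2.64 times higher (2.13 to 3.26), 1 of 5 measured members against 12.2% of 9127 genes. Btg1, Tob1 and Tob2, 3 of 5, were 1.81-fold to 2.05-fold lower, against 16.1%, and Btg2 was between the limits (ratio 0.906, 0.789 to 1.04). The part of mixed cells in these values was not tested.

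Btg2 is also known as an immediate early gene, induced within minutes of a stimulus. Radial glia-like cells with an immediate early UMI among 1000 had 1.45 times the Btg2 (1.14 to 1.87) of those without, and intermediate progenitor-like cells 1.43 times (1.23 to 1.67). Both ratios were under the limit, and 0 of 5 measured members in radial glia-like cells were past it, against 9.9% of 8259 genes higher and 5.5% lower. By run, the Btg2 ratio was 1.66 and 1.17 in radial glia-like cells, so run 1 alone was past the limit. In intermediate progenitor-like cells the lower and higher Btg2 log2 ratios of the 2 runs were 0.26 and 0.78. A single run was thus past the limit there too. In migrating and older excitatory neuron-like cells the Btg2 ratios were 1.18 (0.943 to 1.48) and 0.910 (0.684 to 1.22). In both of these classes 0 of 6 measured members were past the limit, against 4.01% of genes higher and 2.87% lower in migrating and 2.77% higher and 2.6% lower in older excitatory neuron-like cells. Intermediate progenitor-like cells without such a UMI had 665 CPM of Btg2, against 189 CPM in radial glia-like cells without one. Immediate early RNA itself was lower in intermediate progenitor-like (1874 CPM) than in radial glia-like cells (2894 CPM). The part of immediate early induction in the Btg2 levels was not tested. Gadd45g ratios were 0.847 (0.558 to 1.33) and 1.08 (0.896 to 1.31) in these progenitor classes. Of 5 measured members in intermediate progenitor-like cells, Tob2 was higher by the limit, 1.78 times with an interval that includes no change (0.950 to 3.64), against 8.88% of 5314 genes, and 0 were lower, against 5.12%.

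Across 17 clusters of at least 50 cells, Btg2 and Gadd45g had the closest patterns among the members, with a Pearson correlation of 0.90 of log2 levels. Among 9708 genes, the clusters' levels of Mapkapk2 followed both most closely (0.952 for Btg2 and 0.958 for Gadd45g), with Dcaf8 and Ttyh2 next for Btg2 and Rab8b and Efs for Gadd45g. Tob1 was most like Cd63, Bbx and Ctage5, Tob2 like Gem, Dusp10 and Tbc1d4, Btg1 like Zfp236, Ddx17 and Srsf5, and Gadd45a like Zc3h10, Mfng and Phf21a. These are descriptions over clusters that share libraries. Within a class the pairing was near what independent detection gives. Of 385 intermediate progenitor-like cells thinned to 1000 UMIs, 70 had both a Btg2 and a Gadd45g UMI, where 66.6 would be expected from the separate shares (odds ratio 1.17). The other pairs with enough cells lay between odds ratios of 0.735 and 1.36.

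The other genes of the pathways are given by counts, to be read against 14.3% of all 9064 genes higher and 20.9% lower at the first step. From radial glia-like to intermediate progenitor-like cells, CCR4-NOT and poly(A) genes had 2 of 16 measured genes higher and 1 lower, with a median log2 ratio of 0.16 against -0.03 for all genes. Cnot8, a Caf1 deadenylase that Btg and Tob proteins bind, was 1.82 times higher (1.51 to 2.18). The MEKK4, p38 and JNK kinases had 3 of 10 higher and 4 lower, and Mapk14, the p38 alpha kinase, was 2.92-fold lower (2.07 to 4.22). Map2k6, a kinase that activates p38, was 1.83 times higher (1.33 to 2.52). DNA demethylation genes had 3 of 7 higher and 1 lower, and Tet2, an enzyme that oxidises methylcytosine, was 1.88 times higher (1.33 to 2.66). CDK inhibitors and pocket proteins had 2 of 11 higher and 5 lower. Cdkn1c, the inhibitor p57, went from 24.1 to 253 CPM (10.5 times, 8.04 to 13.8), and Cdkn2c, the inhibitor p18, was 6.75-fold lower (4.08 to 12). Of 11 measured p53 pathway genes, 3 were higher and 0 lower, led by Trp53inp1 at 6.30 times (4.79 to 8.36). Immediate early genes had 4 of 16 higher and 7 lower, and Cyr61 was 13.8-fold lower (10.5 to 18.4). Of 2 further measured genes listed beside the members, 1 was higher. This was Gadd45gip1, which encodes a partner of Gadd45 proteins, at 1.90 times (1.42 to 2.53). As background for the step itself, 17 of 18 measured proneural genes were higher, and 40 of 41 S-phase and 51 of 55 G2/M genes were lower.

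From intermediate progenitor-like to migrating excitatory neuron-like cells, where 13.2% of all 8801 genes were higher and 15.3% lower, the lists differed in direction. CCR4-NOT and poly(A) genes had 3 of 16 lower, led by the poly(A)-binding protein gene Pabpc1 (2.12-fold lower, 1.94 to 2.31), and 0 higher, with a median log2 ratio of -0.30. The MEKK4, p38 and JNK kinases had 6 of 10 higher and 0 lower, with a median log2 ratio of 0.75 against -0.08 for all genes, led by Mapk11, the p38 beta kinase, at 2.52 times (1.46 to 4.66). DNA demethylation genes had 0 of 7 past the limit in either direction. Of 9 measured CDK inhibitors and pocket proteins, 2 were higher and 1 lower, with Cdkn2d, the inhibitor p19, at 2.78 times (1.67 to 4.92). Of 10 measured p53 pathway genes, 1 was higher and 1 lower, and of 14 immediate early genes 2 were higher and 4 lower. Proneural genes had 14 of 18 lower and 1 higher, with a median log2 ratio of -1.42. S-phase genes had 19 of 28 lower and 0 higher, and G2/M genes had 7 of 31 lower and 3 higher.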

How the data were processed

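The deposited matrix holds raw UMI counts per gene and cell from 16 samples of 1 group pooled without a map from cells to samples, so no test across samples was possible. Reads were aligned to mm10, per the submitters' processing notes, while names of an aligner and a counting tool were not given in the sources used here. Genes and lists were chosen with earlier results of these data known. Cells held 1111 to 17398 UMIs. Cells were clustered (leidenalg 0.10.2, igraph 0.11.9, scikit-learn 1.9.0, Python 3.11.15) on 2000 variable genes, 30 principal components and 15 neighbours at resolution 1, without the 7 members, ribosomal protein genes or any gene list except the proneural one. Clusters were named from markers, with limits for naming that were also chosen with earlier results known, and 4 clusters of 756 cells stayed unnamed. Doublets were scored but kept.

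Class sums were given as CPM with exact Poisson intervals, ratios with exact conditional binomial intervals and shares of cells with Clopper-Pearson intervals (scipy 1.17.1). All 7 members are described, and from each other list the text names the gene with the largest ratio in each direction or a part of those. A split of cells by full cycle gene lists, at least 2 against 0 UMIs among 1000, could not be used, because 2 radial glia-like cells had 0. It was replaced, after the counts of cells had been seen, by genes at least 8-fold lower in older excitatory neuron-like than in radial glia-like cells and the limits of 0 or 1 and at least 4 UMIs. The comparisons by Neurog2 or Eomes UMIs, by immediate early UMIs, with striatal neuron-like cells, within the migrating class and with the dividing cluster were also added after values had been seen. Counts for 9028 genes of the step from radial glia-like to intermediate progenitor-like cells were simulated. Of these, 100% of 4-fold changes, 98% of 2-fold increases and 95.7% of 2-fold decreases were called, and 96.6% of unchanged genes were not. The simulated class sums were Poisson counts, the model behind the intervals, so this checks the calculation only. It does not cover differences between cells, embryos or clusterings. Alternatives varied the clustering, thinning, limits, doublets, run of cells and cycle genes. A further added comparison is not reported here.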

Additional observations from a re-analysis of the deposited data

How the results depend on the processing

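Counting error and depth limit Gadd45b (67 UMIs) and Gadd45a (277 UMIs), and intervals do not cover differences between embryos. No paired analysis was possible because cells carry no sample name, and for the same reason no replicate could be left out. Of 478 alternative values for 48 results of single members, 446 had the sign of the reported value, 72 lay outside its interval and 3 reversed a call, and 30 of the 48 kept their sign throughout. Some alternatives were added after seeing the data. The reported cycle values themselves rest on the replacement split, and the split by the full cycle lists was an alternative where enough cells were at 0. The 3 members higher from radial glia-like to intermediate progenitor-like cells stayed within 1.5 times that count. Of the 5 lower in migrating cells, a 2-fold limit and the second run each gave 3. Of the 4 lower in older neurons, a 2-fold limit and a random 50% of UMIs each gave 2. Of the 4 past the limit in interneuron-like cells, 15 components and a random 50% of UMIs each gave 2 and the second run gave 1. At resolution 0.5 the log2 ratio of Btg1 there was -0.14 in place of 1.08. The 3 members peaking in bins 3 and 4 were 5 in the second run.

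For cycle RNA in radial glia-like cells, 2 members passed, and 4 in the first run and without thinning. Btg2 and Gadd45g kept their sign in 12 and 11 alternatives, with log2 ratios from -1.78 to -0.91 and from -2.14 to -1.23. In intermediate progenitor-like cells, 2 passed, but 1 without likely doublets and with another seed, and 0 with at least 1 against 0, or at least 3 against at most 1, UMIs. There Tob2 was 0.33 with at least 1 against 0 UMIs in place of -1.18, and Gadd45g was 0.83 with the full lists (14 cells at 0) in place of -0.63. In ganglionic eminence progenitor-like cells, 1 passed: 2 without likely doublets, with another seed and without features that follow the cycle, 3 with equal weight per cell, in the first run, with at least 1 against 0 UMIs and without thinning, and 0 with S-phase genes alone. For immediate early RNA, 0 passed in radial glia-like cells, but 1 did in run 1 and 2 did in run 2. In intermediate progenitor-like cells 1 passed, and 2 in the second run. The cause of these differences was not tested.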
